A study of Homo sapiens with 6 samples.

Results

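Keratins and claudins were taken as the genes of the count table whose symbol was KRT or CLDN followed by a number and nothing else. They numbered 74 of the 60708 genes listed, 50 keratins and 24 claudins. RNA-seq was run on bulk RNA of Caki-1, a human clear cell renal carcinoma line, in 6 samples. The 3 VC (vector control) samples had the wild-type genotype. The study's methods describe infection with the lentiviral CRISPR vector alone for controls of further knockouts, so the vector of these VC cells is not certain. The 3 VHL-KO samples carried a VHL knockout made by lentiviral CRISPR/Cas9 with a guide RNA against VHL. The knockout cells were clonal by the study's methods, and how many clones the 3 samples represent is not given in the sources used here, so the knockout and the choice of a clone cannot be told apart. The samples are not said to be separate cultures, so p-values measure only the spread between these samples, which may be technical. VC replicates 1 to 3 held 31789923, 28463579 and 34881739 counts, and VHL-KO replicates 1 to 3 held 29139722, 22805385 and 22628246 counts.

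Keratins are the intermediate filament proteins of epithelial cells, built from obligate pairs of an acidic type I and a basic type II chain. KRT8 with KRT18 is the pair of simple epithelia such as the renal tubule, while other pairs belong to stratified epithelia, hair and its root sheath. Claudins are membrane proteins of tight junctions that seal the space between neighbouring cells or form pores through it for selected ions, and each nephron segment has its own claudin makeup.

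VHL was counted in all samples. Its level was 42.6, 37.8 and 40.1 CPM (counts scaled to a common library total after TMM normalization) in VC replicates 1 to 3 and 34.8, 30.4 and 30.5 CPM in VHL-KO replicates 1 to 3. The groups did not overlap, and the log2 fold change was -0.33 with a standard error (SE) of 0.11 (edgeR adjusted p = 0.0109). This call was lost without VC replicate 1 (log2 fold change -0.28), without VHL-KO replicate 2 (-0.30), with upper quartile factors (-0.22) and with offsets for GC content and length (-0.09), and its direction was the same in all 15 alternatives. A read count does not show whether the coding sequence is intact, so VHL levels check the labels only in part. Markers of kidney epithelium and renal carcinoma lines gave 10 of 12 genes that reached 10 reads in some sample, among them PAX8 at 440.0, 459 and 384 CPM in VC and 611, 601 and 629 CPM in VHL-KO replicates 1 to 3. CA9, a hypoxia-induced carbonic anhydrase, had 2 reads over the VC samples and 768 over the VHL-KO samples. It reached 10 reads only in VHL-KO samples, so its call describes a gene selected by the group where it was high. Of the 10 tested markers, 4 were higher and 3 were lower in VHL-KO cells, where 28.5% and 31.2% of all tested genes were called higher and lower. The 5 largest called changes were those of CA9, the kidney cadherin CDH16 (log2 fold change 3.42) and the methyltransferase NNMT (1.20), all higher, and of the nephron transcription factor LHX1 (-1.67) and the epithelial adhesion molecule EPCAM (-1.42), both lower. PAX2 was listed at 0, and the epithelial cadherin CDH1 had at most 3 reads in any sample.

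Of the 74 genes, 23 had 10 or more reads in any sample and were tested. They were the 13 keratins KRT7, KRT8, KRT10, KRT15, KRT18, KRT19, KRT27, KRT32, KRT38, KRT80, KRT81, KRT86 and KRT222 and the 10 claudins CLDN1, CLDN2, CLDN3, CLDN4, CLDN9, CLDN11, CLDN12, CLDN15, CLDN16 and CLDN23. A further 15 had between 1 and 9 reads in their highest sample (up to 8 in CLDN6), and 36 had no read in any sample. A count of 0 allows a level of up to 3 counts, which was 0.0790 CPM in the deepest and 0.141 CPM in the shallowest sample, counting error only.

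Against VC, 11 of the 23 tested genes were higher in VHL-KO cells and 3 were lower at an adjusted p under 0.05, where 28.5% and 31.2% of all 17401 tested genes were called higher and lower. The keratins gave 8 higher and 1 lower of 13 tested, and the claudins 3 higher and 2 lower of 10 tested. The median log2 fold change was 0.76 over the tested keratins and -0.03 over the tested claudins, beside -0.01 over all tested genes. The claudin median changed sign with the sample left out, from -0.15 without VC replicate 2 to 0.10 without VC replicate 3. The keratin median was also 0.76 with KRT38, which had no read in VC, at its lower bound. With offsets for GC content and length the keratin median was 0.32. All tested genes with 55 to 65% GC, the range of 13 of the 23 members, had a median of 0.37 without offsets. Samples of the groups did not overlap in 14 of the 23 genes, where 64.7% of all tested genes did not overlap. A gene that passes the filter only in the group where it is high had to differ, so these counts describe the tested genes and not all 74.

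**Figure D1:**
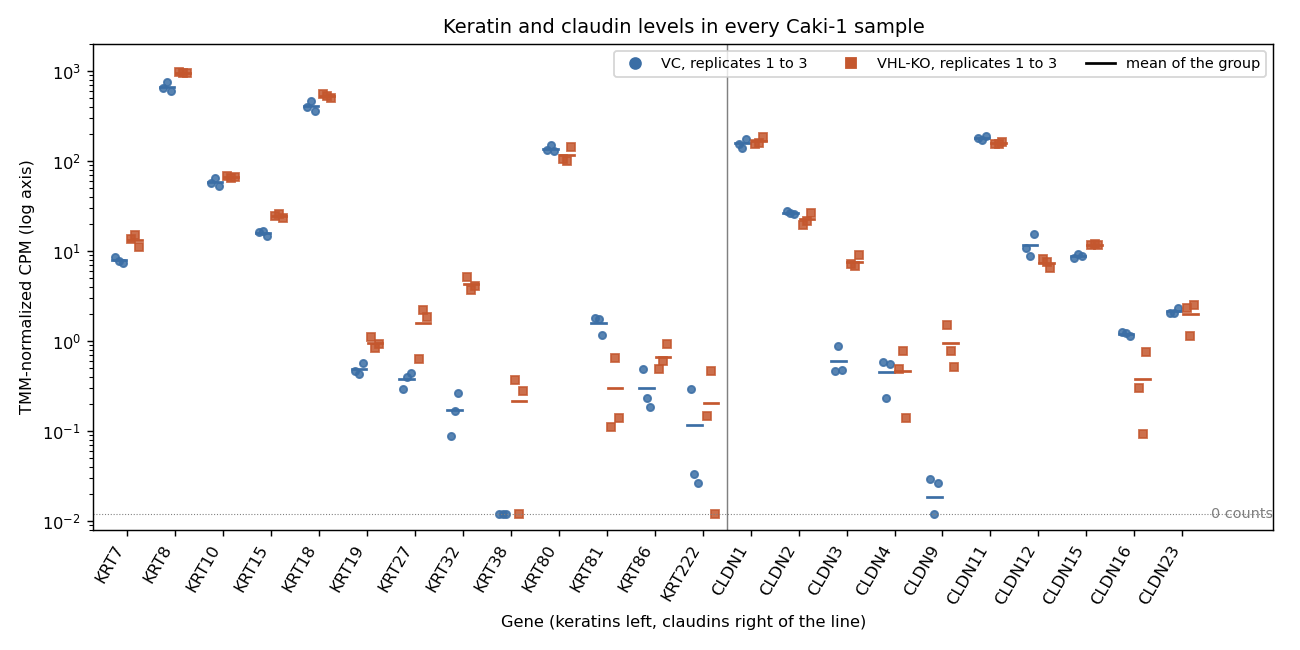
TMM-normalized CPM on a log axis for the 23 keratins and claudins with 10 or more reads in any sample, as points for the 3 VC (circles) and 3 VHL-KO samples (squares) with group means as lines and samples without a read on the dotted line. KRT8 and KRT18 sit highest among the keratins and CLDN1 and CLDN11 among the claudins, and KRT32, CLDN3 and CLDN9 show the widest gaps between groups among genes with reads in both.

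KRT8 and KRT18 were the most abundant keratins. KRT8, the type II chain of simple epithelia, measured 648, 766 and 597 CPM in VC replicates 1 to 3 and 967, 943 and 944 CPM in VHL-KO replicates 1 to 3. All VHL-KO samples lay above all VC samples, with a log2 fold change of 0.51 (SE 0.092, edgeR adjusted p = 4.3e-05). Its type I partner KRT18 measured 400.3, 467 and 359 CPM in VC and 562, 523 and 502 CPM in VHL-KO replicates 1 to 3. These groups were also separate, with a log2 fold change of 0.37 (SE 0.095, edgeR adjusted p = 0.00174). The KRT18 call was lost with library size alone as scaling (log2 fold change 0.18) and with GC and length offsets (0.10), while KRT8 was called higher in all 15 alternatives run. In bulk RNA, a change in RNA per cell and a change in the share of cells with the RNA cannot be told apart.

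KRT7, a type II chain of ductal epithelia, measured 8.58, 7.71 and 7.38 CPM in VC and 13.6, 15.2 and 11.3 CPM in VHL-KO replicates 1 to 3. The VHL-KO samples were all higher, with a log2 fold change of 0.76 (SE 0.15, edgeR adjusted p = 0.000164) that came to 0.17 with GC and length offsets and was then not called. KRT19, the type I chain found in ductal cells, had 16, 13 and 22 reads in VC and 30, 18 and 20 reads in VHL-KO replicates 1 to 3. Its mean was 0.495 CPM in VC and 0.965 CPM in VHL-KO, with separate groups and a log2 fold change of 0.96 (SE 0.41, edgeR adjusted p = 0.0488). The KRT19 call held in 4 of 15 alternatives, and adjusted p ran from 0.0114 to 0.543 over them and the main test. It was lost without any single VC replicate (log2 fold change 0.92, 0.89 and 1.10 without VC replicates 1, 2 and 3) and without VHL-KO replicate 1 (0.83) or 3 (0.98), and with GC and length offsets the value was 0.31. KRT20, the remaining simple epithelial keratin of the list, had no read.

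Among keratins of stratified epithelia, 3 of 20 were tested. KRT15, a type I chain of basal keratinocytes, measured 16.3, 16.7 and 14.6 CPM in VC and 24.9, 25.6 and 23.6 CPM in VHL-KO replicates 1 to 3. The groups were separate, and KRT15 was called higher in all alternatives (log2 fold change 0.64, SE 0.12, edgeR adjusted p = 8.3e-05). KRT10, a type I chain of differentiating epidermis, measured 57.9, 65.5 and 52.5 CPM in VC and 69.1, 64.8 and 66.3 CPM in VHL-KO replicates 1 to 3. KRT10 overlapped between groups and was not called (log2 fold change 0.19, SE 0.10, edgeR adjusted p = 0.112), with a value of -0.0036 under library size alone. It was called higher without VC replicate 2 (log2 fold change 0.29) and with upper quartile factors (0.30). KRT80, a type II chain, measured 133, 151 and 128 CPM in VC and 105, 101 and 142 CPM in VHL-KO replicates 1 to 3. VHL-KO replicate 3 lay inside the VC range, and KRT80 was not called (log2 fold change -0.25, SE 0.11, edgeR adjusted p = 0.0623). KRT80 was called lower in 7 of 15 alternatives, without VHL-KO replicate 3 (log2 fold change -0.42) or VC replicate 3 (-0.28), with library size alone (-0.44), with a filter of at least 1 count (-0.28) and with GC and length offsets (-0.41) among them. KRT5 and KRT14, the basal keratinocyte pair, had no read.

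Keratins of hair and its root sheath gave 5 tested genes of 24, at low levels. KRT32, a type I hair cuticle keratin, had 3, 5 and 10 reads in VC and 138, 81 and 88 reads in VHL-KO replicates 1 to 3. These were 0.0879, 0.168 and 0.263 CPM against 5.17, 3.75 and 4.13 CPM, so each VHL-KO sample exceeded each VC sample. The fitted log2 fold change was 4.60 (SE 0.34, edgeR adjusted p = 3.4e-11), or 24.2-fold. KRT27, a type I keratin of the inner root sheath, had 10, 12 and 17 reads in VC and 17, 48 and 40 reads in VHL-KO replicates 1 to 3. VHL-KO replicate 1 lay nearest to the VC samples, at 0.636 CPM against at most 0.448 CPM in VC, and the log2 fold change was 2.02 (SE 0.45, edgeR adjusted p = 0.000419). Both genes were called higher in all alternatives that tested them.

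KRT38, a type I hair keratin, had no read in any VC sample and 10, 0 and 6 reads in VHL-KO replicates 1 to 3. Over the group it was at least 7.80-fold higher against a floor of 3 counts (edgeR adjusted p = 0.0067). KRT38 passed the filter only through VHL-KO replicate 1, so its call describes a gene selected by the group where it was high. VHL-KO replicate 2 matched the VC samples at 0, DESeq2 gave an adjusted p of 0.185 (0.00158 to 0.185 over the alternatives), and KRT38 was not tested without VHL-KO replicate 1. KRT81, a type II keratin of the hair cortex, had 62, 53 and 45 reads in VC and 3, 14 and 3 reads in VHL-KO replicates 1 to 3. It was lower in all VHL-KO samples, with a log2 fold change of -2.43 (SE 0.48, edgeR adjusted p = 0.000113) that was -3.62 without VHL-KO replicate 2. KRT81 has near-identical copies in KRT83 and KRT86, so its counts are uncertain where reads map to more than a single locus. KRT86 itself had between 7 and 20 reads in each sample and was not called, and KRT83 had at most 6 reads in any sample. KRT222, which overlaps another gene on the same strand over 34.5% of its exon length, was not called with 0 to 10 reads in each sample.

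The promoters of KRT32 and KRT27 are shown because these type I keratins had the largest called increases among keratins with reads in all samples. RefSeq promoters on GRCh38.p14 were found for 13 of the 23 tested genes and 51 of the 74 genes. The 250 bases before the start lie at chr17:41467387-41467636 for KRT32 and chr17:40782551-40782800 for KRT27, both on the minus strand and free of annotated exons. Capitals mark the letters TATAAA on either strand.
KRT32: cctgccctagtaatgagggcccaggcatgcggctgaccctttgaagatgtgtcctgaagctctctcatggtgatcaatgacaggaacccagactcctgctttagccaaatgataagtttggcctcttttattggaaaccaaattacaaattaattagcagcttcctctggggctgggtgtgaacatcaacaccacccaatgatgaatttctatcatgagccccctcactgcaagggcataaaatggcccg
KRT27: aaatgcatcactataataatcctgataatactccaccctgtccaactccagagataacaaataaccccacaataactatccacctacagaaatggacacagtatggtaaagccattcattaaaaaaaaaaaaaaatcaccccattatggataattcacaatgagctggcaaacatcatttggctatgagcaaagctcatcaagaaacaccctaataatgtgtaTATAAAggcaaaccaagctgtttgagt
The KRT27 window held TATAAA with its first base 27 bases before the start, and the KRT32 window held no match. TATAAA was present in 10.7% of the 35116 promoter windows and in 20 of the 63 windows of keratins and claudins, 3 of them among the 16 windows of tested genes. Promoter windows were 300 bases long and the 250 bases before the start are printed, so shares over windows may cover bases not shown. Both windows lacked ACGTG or GCGTG, the core of hypoxia response elements, which 43.2% of all windows held on either strand. A match describes letters only.

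Most keratin reads belonged to the KRT8 and KRT18 pair, and the balance within the pair differed between groups. KRT8 and KRT18 made up 82.7%, 83.5% and 82.3% of summed keratin CPM in VC and 87.4%, 87.2% and 85.2% in VHL-KO replicates 1 to 3. The ratio of KRT8 to KRT18 counts, which needs no scaling between libraries, was 1.62, 1.64 and 1.66 in VC and 1.72, 1.80 and 1.88 in VHL-KO replicates 1 to 3. Every VHL-KO ratio lay above every VC ratio, a description without a test. Over all keratins, the ratio of type II to type I overlapped between groups. It was 1.66, 1.68 and 1.72 in VC and 1.64, 1.71 and 1.83 in VHL-KO replicates 1 to 3. KRT8 and KRT18 lie next to each other on chromosome 12 and overlap on opposite strands over 7.63% and 17.1% of their exon length, and strandedness of the counting is not given in the sources used here, so reads in the overlap cannot be assigned to either. Of 10 tested pseudogenes of keratins and claudins, 2 were higher and 1 was lower, beside 28.5% and 31.2% of all tested genes. This count includes KRT8P11, which passed the filter through a single VHL-KO sample, and KRT8P33, which passed it only through VC samples. KRT8P12 was higher in VHL-KO cells (log2 fold change 0.64, edgeR adjusted p = 0.000366), and not called with GC and length offsets (0.19). KRT8P33 was lower (-1.93), at -2.55 without VHL-KO replicate 2, and not called without VC replicate 1 (-1.86) or VHL-KO replicate 1 (-1.62). KRT8P11 had 10 reads in VHL-KO replicate 2 and none in any other sample, at least 4.88-fold higher over the group against a floor of 3 counts, with its call lost in 7 of 13 alternatives.

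Summed over all 50 keratins, VC replicates 1 to 3 measured 1267, 1477 and 1161 CPM and VHL-KO replicates 1 to 3 measured 1750, 1681 and 1698 CPM. The VHL-KO mean was 31.3% above the VC mean, and 15.1% above it when only library size was used. Neither scaling removes a trend with GC content. With GC and length offsets, KRT8 and KRT18, which make up most of this sum, had log2 fold changes of 0.32 and 0.10. Sums and the vimentin ratio were not formed with these offsets. Summed over all 24 claudins, VC samples measured 387, 361 and 421 CPM and VHL-KO samples 363, 367 and 406 CPM. The claudin sums overlapped, with a VHL-KO mean that differed from the VC mean by -2.76%, or by -15.0% with library size alone. Vimentin, the intermediate filament of mesenchymal cells, was 4.91, 4.70 and 5.28 times the keratin sum in VC and 3.63, 3.49 and 3.65 times in VHL-KO replicates 1 to 3, with VIM itself not called (log2 fold change -0.07).

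**Figure D2:**
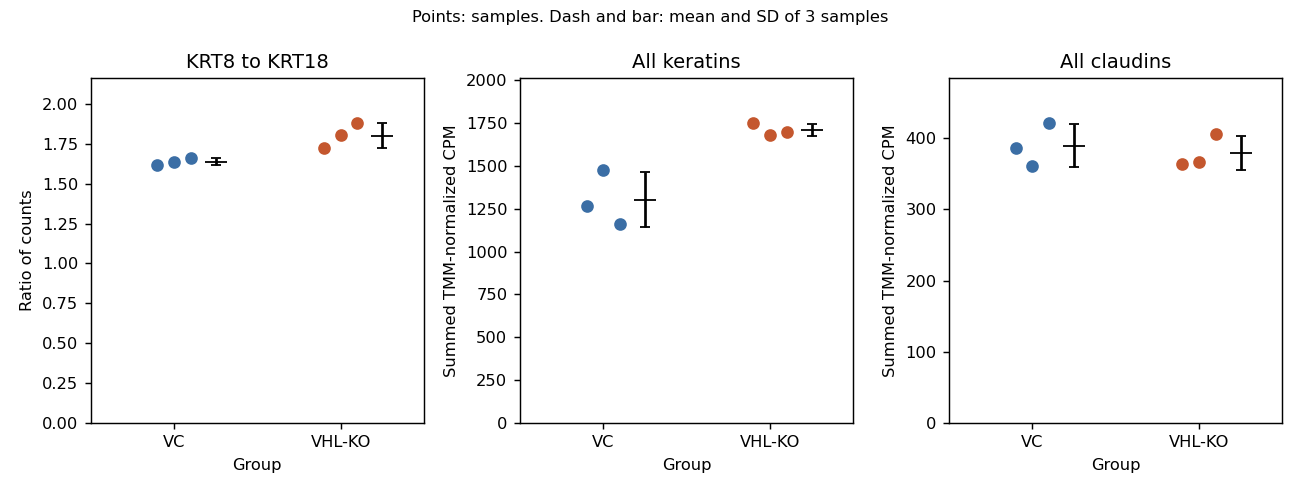
Ratio of KRT8 to KRT18 counts, summed keratin CPM and summed claudin CPM in each of the 3 VC and 3 VHL-KO samples (points), with the mean and SD of each group. The ratio and the keratin sum are separate between groups, the ratio from 1.62 to 1.66 in VC and 1.72 to 1.88 in VHL-KO, and the claudin sums overlap.

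Per kilobase of exon, KRT18 and KRT8 led the keratins at 133 ± 17.8 and 97.4 ± 12.6 CPM per kb in VC and 172 ± 9.82 and 138 ± 1.99 in VHL-KO (mean ± SD, n = 3). With the longest transcript as length, KRT8 instead stood above KRT18, at 234 against 196 CPM per kb in VC, so the order of this pair depends on the length used. KRT80 and KRT10 followed at 31.5 ± 2.79 and 27.1 ± 3.02 CPM per kb in VC, and in VHL-KO KRT10 (30.9) stood above KRT80 (26.5). KRT15 at 2.66 ± 0.191 and KRT7 at 1.97 ± 0.156 came next in VC, in the reverse order with the longest transcript (4.23 and 4.85). KRT32 was at 0.0864 ± 0.0438 CPM per kb in VC and 2.17 ± 0.365 in VHL-KO, where it stood below KRT7 (3.34 ± 0.491).

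Sealing claudins were led by CLDN1 and CLDN11. CLDN1, a main barrier claudin, measured 154, 141 and 177 CPM in VC and 156, 159.7 and 185 CPM in VHL-KO replicates 1 to 3. The groups overlapped and CLDN1 was not called (log2 fold change 0.08, SE 0.099, edgeR adjusted p = 0.489). Its value was -0.11 with library size alone and 0.53 with GC and length offsets, where it was called higher. CLDN11, which forms the junction strands of myelin and Sertoli cells, measured 180.2, 171 and 188 CPM in VC and 155, 156 and 164 CPM in VHL-KO replicates 1 to 3. All VHL-KO samples lay below VC, yet the change was small and not called (log2 fold change -0.18, SE 0.087, edgeR adjusted p = 0.0729). It was called lower without VC replicate 2 (log2 fold change -0.20), with library size alone (-0.38) and with a filter of at least 1 count (-0.22), and stood at -0.07 with upper quartile factors and -0.0035 with GC and length offsets.

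CLDN3, a sealing claudin of tubular epithelium, had 16, 26 and 18 reads in VC and 193, 146 and 192 reads in VHL-KO replicates 1 to 3. In CPM these were 0.469, 0.875 and 0.474 against 7.23, 6.77 and 9.01, with no overlap. CLDN3 was 12.8-fold higher (log2 fold change 3.68, SE 0.25, edgeR adjusted p = 1.0e-11), and between 2.85 and 4.03 on the log2 scale in all alternatives. CLDN4, whose gene lies near CLDN3 on chromosome 7, had 20, 7 and 21 reads in VC and 13, 17 and 3 reads in VHL-KO replicates 1 to 3, with overlapping groups and no call. CLDN3 is shown because its change was the largest among claudins with over 10 reads in all samples. Its 250 bases before the start lie at chr7:73770271-73770520 on the minus strand, free of annotated exons, and capitals mark the hypoxia response core.
CLDN3: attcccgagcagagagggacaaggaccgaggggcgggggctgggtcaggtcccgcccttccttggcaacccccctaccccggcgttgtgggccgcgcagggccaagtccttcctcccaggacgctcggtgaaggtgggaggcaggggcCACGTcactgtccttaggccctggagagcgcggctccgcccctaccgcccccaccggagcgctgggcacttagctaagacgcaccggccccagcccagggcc
The window held CACGT, the reverse complement of ACGTG, with its first base 102 bases before the start. Of the 63 promoter windows of keratins and claudins, 19 held this core or GCGTG on either strand, 3 of them among the 16 windows of tested genes, where 43.2% of all promoter windows held it. CACCTG, an E-box of the type bound by Snail factors, was in 9 of the 63 windows, none of the 16 and 17.5% of all windows.

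Of the pore-forming claudins, CLDN2 and CLDN15 were tested. CLDN2, a cation and water pore of the proximal tubule, measured 27.9, 26.5 and 26.2 CPM in VC and 19.5, 21.6 and 26.4 CPM in VHL-KO replicates 1 to 3. VHL-KO replicate 3 lay within the VC range, and CLDN2 was not called (log2 fold change -0.26, SE 0.12, edgeR adjusted p = 0.0772), though it was called lower without that replicate (-0.38), with library size alone (-0.45) and with GC and length offsets (-0.29). CLDN15, a cation pore best known from intestine, measured 8.46, 9.39 and 8.90 CPM in VC and 11.7, 11.9 and 11.7 CPM in VHL-KO replicates 1 to 3. The groups were separate (log2 fold change 0.40, SE 0.14, edgeR adjusted p = 0.0197), but its sign changed to -0.04 with GC and length offsets. The CLDN15 call was also lost without VC replicate 1 (log2 fold change 0.37) and VHL-KO replicate 2 (0.40), with library size alone (0.21) and with a filter of at least 1 count (0.36). CLDN10, the paired pore claudin of the nephron, had at most 7 reads in any sample.

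CLDN16, which carries magnesium and calcium in the thick ascending limb, had 43, 37 and 43 reads in VC and 8, 2 and 16 reads in VHL-KO replicates 1 to 3. It was lower in all VHL-KO samples (log2 fold change -1.68, SE 0.47, edgeR adjusted p = 0.00384), at -2.54 without VHL-KO replicate 3, and was not called with GC and length offsets (-1.14). CLDN16 and CLDN1 stand head to head on chromosome 3, at chr3:190322541-190412138 on the plus and chr3:190305707-190322446 on the minus strand. CLDN12 measured 10.9, 8.89 and 15.7 CPM in VC and 8.24, 7.60 and 6.57 CPM in VHL-KO replicates 1 to 3. These groups were separate (log2 fold change -0.66, SE 0.18, edgeR adjusted p = 0.00315), but with GC and length offsets the value was -0.09 and the call was lost. CLDN12 shares 17.6% of its exon length with a gene on the same strand, and CLDN11 15.8%, so their counts are uncertain there. CLDN9 had 1, 0 and 1 reads in VC and 41, 17 and 11 reads in VHL-KO replicates 1 to 3. It passed the filter only through VHL-KO samples, so its call describes a gene selected by the group where it was high. The ratio of its summed counts per TMM-scaled library size was 50.5, with an exact 95% counting interval from 13.5 to 425 (edgeR adjusted p = 5.5e-06). CLDN23 measured 2.05, 2.05 and 2.32 CPM in VC and 2.36, 1.16 and 2.53 CPM in VHL-KO replicates 1 to 3, with overlap and no call (log2 fold change -0.08), and was 0.19 without VHL-KO replicate 2.

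**Figure D3:**
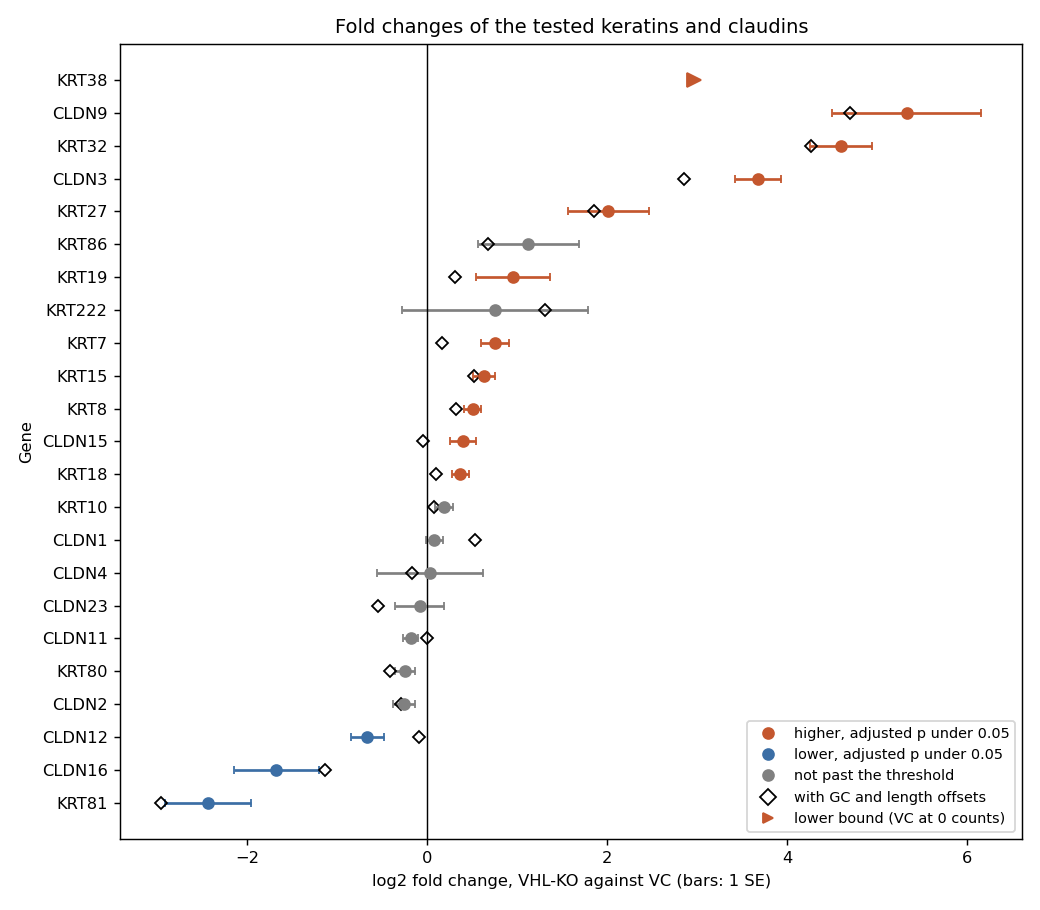
Log2 fold changes of VHL-KO against VC with 1 SE for the 23 tested genes (filled, coloured by call) and the same with offsets for GC content and length (open diamonds), with KRT38 drawn at its lower bound. CLDN3, CLDN9 and KRT32 lie far to the right with and without offsets, and CLDN12, CLDN15, KRT7 and KRT18 move near 0 with offsets.

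Within the claudins, CLDN3 took a larger share in every VHL-KO sample than in any VC sample. As shares of summed claudin CPM per kb, CLDN11 took 42.1%, 42.6% and 40.5% in VC and 36.7%, 36.7% and 34.3% in VHL-KO replicates 1 to 3. CLDN1 took 43.0%, 41.8% and 45.4% in VC and 43.9%, 44.8% and 46.0% in VHL-KO. CLDN3 took 0.372%, 0.740% and 0.346% in VC and 5.78%, 5.40% and 6.40% in VHL-KO. The CLDN1 shares overlapped between groups, while those of CLDN11 and CLDN3 did not. CLDN2 took 8.26%, 8.38% and 7.13% in VC and 5.84%, 6.44% and 6.99% in VHL-KO, without overlap. These shares need no scaling between libraries but depend on exon lengths, and no test was run on them.

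**Figure D4:**
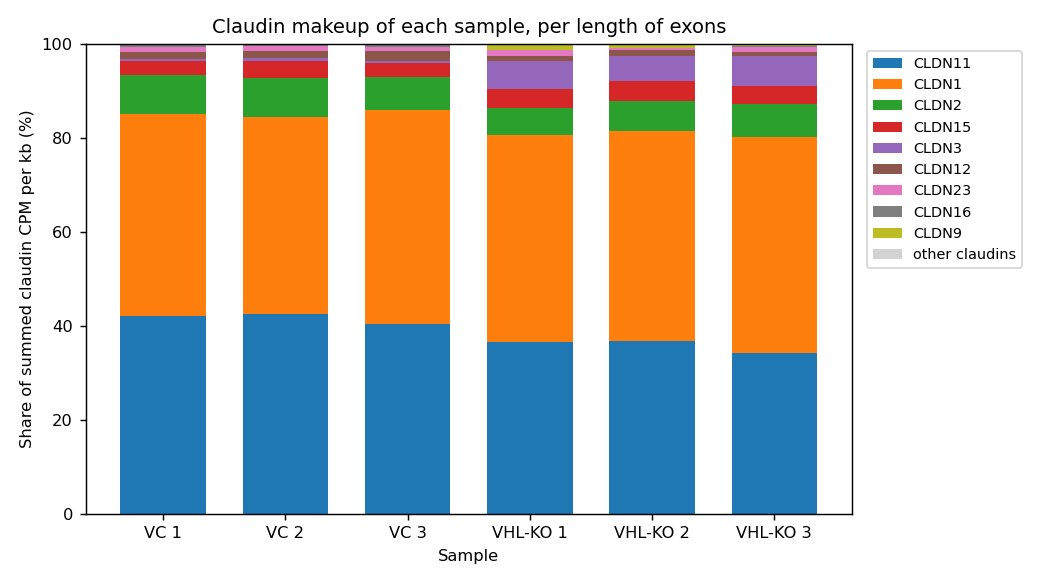
Share of summed claudin CPM per kb of exon taken by each claudin in the 3 VC and 3 VHL-KO samples, as stacked bars from 0 to 100%. CLDN11 and CLDN1 fill most of each bar, and the CLDN3 band is between 5.40% and 6.40% in VHL-KO and at most 0.740% in VC.

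Fold changes of all tested genes moved with base composition. The median log2 fold change over all tested genes was -0.35 for the 6320 genes with 35 to 45% GC and 0.37 for the 4144 genes with 55 to 65% GC. Of the 23 members, 13 lay in the latter range, among them KRT8 (56.2%), KRT18 (55.7%), KRT7 (62.0%), KRT19 (61.8%) and CLDN15 (60.2%). CLDN12 (38.1%) and CLDN16 (37.1%) lay in the former. With offsets that remove each library's trend with GC content and length, 5 keratins and 3 claudins were called higher, and the keratin median was 0.32. Those called higher were KRT8, KRT15, KRT27, KRT32, KRT38, CLDN1, CLDN3 and CLDN9, and those called lower were KRT80, KRT81 and CLDN2. Over all genes, the fit with these offsets called 10406 of 17355, and 50.3% of those calls were higher. Scaling by library size alone moved the median of all tested genes from -0.01 to -0.20 and the share of calls that were higher from 47.7% to 35.8%. Relative to that median, KRT8 stood at 0.52, KRT18 at 0.38 and CLDN1 at 0.09 with library size alone.

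Tight junction partners of the claudins moved in both directions. Of 19 genes in the list, 17 were tested, 5 were higher and 7 were lower, and the median log2 fold change was -0.25. Beside the counts of this list and of the desmosome, linker, intermediate filament and regulator lists, 28.5% of all tested genes were called higher and 31.2% lower. TJP1, the scaffold that ties claudins to actin, measured 50.4, 49.8 and 61.2 CPM in VC and 9.40, 15.9 and 17.5 CPM in VHL-KO replicates 1 to 3. It was lower in all VHL-KO samples (log2 fold change -1.92, edgeR adjusted p = 2.1e-10). The junction plaque protein CGN (-1.94, or -2.54 without VHL-KO replicate 2) was also lower, at 2.90 CPM in the VC mean. JAM2, a junctional adhesion molecule, was higher (1.41), as was the polarity gene PARD6A (1.27, with a lowest value of 0.57 over the alternatives). TJP3 was higher at 2.93, from 4 reads over the VC samples. It passed the filter only through VHL-KO replicate 2, so its call describes a gene selected by the group where it was high. This call was lost without VC replicate 2 (2.47) or 3 (2.72), and the value was 4.12 without VC replicate 1. TJP3 was not tested without VHL-KO replicate 2. OCLN, occludin, was not called at a VC mean of 1.60 CPM.

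Desmosomes anchor keratin filaments at the cell membrane. Of 14 desmosome genes, 9 were tested, with 4 higher, 4 lower and a median of 0.38. JUP, plakoglobin, measured 21.5, 23.3 and 20.2 CPM in VC and 105, 104 and 108 CPM in VHL-KO replicates 1 to 3, without overlap (log2 fold change 2.29, edgeR adjusted p = 2.6e-15). PKP2, plakophilin, fell (-1.76), as did the cadherin DSG2 (-0.98), and the cadherin DSC2 rose (0.76). The cadherin DSC3 was called lower (-1.03), but its groups overlapped. VHL-KO replicate 2 stood at 1.48 CPM and VC replicate 2 at 1.41 CPM. DSC3 was not called without VC replicate 3 (-0.76) or VHL-KO replicate 3 (-0.80), or with GC and length offsets (-0.47). DSP, which links the plaque to keratins, had at most 7 reads in any sample and was not tested.

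Of 14 keratin linkers and cornified envelope genes, 7 were tested, with 1 higher, 4 lower and a median of -0.34. PPL, periplakin, measured 6.94, 7.71 and 6.06 CPM in VC and 43.8, 44.9 and 53.1 CPM in VHL-KO replicates 1 to 3, without overlap (log2 fold change 2.78, edgeR adjusted p = 1.0e-14). EVPL, envoplakin, its partner in the cornified envelope, had 56 reads over the VC samples and none in VHL-KO, at least 12.8-fold lower against a floor of 3 counts. FLG, filaggrin, which bundles keratin, had 97, 105 and 124 reads in VC and 4, 0 and 0 reads in VHL-KO replicates 1 to 3 and was lower (-5.71). Without VHL-KO replicate 1 that group had no FLG read, so no fold change is given for it. EVPL and FLG passed the filter only through VC samples, so their calls describe genes selected by the group where they were high. The count of lower genes and the median of this list include both. TCHP, a keratin-binding protein, was lower (-0.97), and so was DST (-0.34). DST was not called without VHL-KO replicate 1 (-0.26) or with upper quartile factors (-0.23), and changed sign to 0.04 under GC and length offsets. PLEC, plectin, was not called (0.18), and involucrin, loricrin and the small proline-rich genes of the list had no read.

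Among 13 other intermediate filament genes, 7 were tested, none was higher and 3 were lower. LMNB1, lamin B1, measured 124, 122 and 139 CPM in VC and 17.5, 18.6 and 17.5 CPM in VHL-KO replicates 1 to 3, a log2 fold change of -2.84 (edgeR adjusted p = 8.0e-17). NES, nestin (-1.70), and LMNB2 (-1.24) were also lower. Of 13 epithelial regulators, 5 were tested, with ELF3 higher (1.27) and KLF4 lower (-0.48). KLF4 was not called without VC replicate 1 (-0.49) or 2 (-0.42) or VHL-KO replicate 1 (-0.42), or with upper quartile factors (-0.36). GRHL2, OVOL1 and TP63 had no read.

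**Figure D5:**
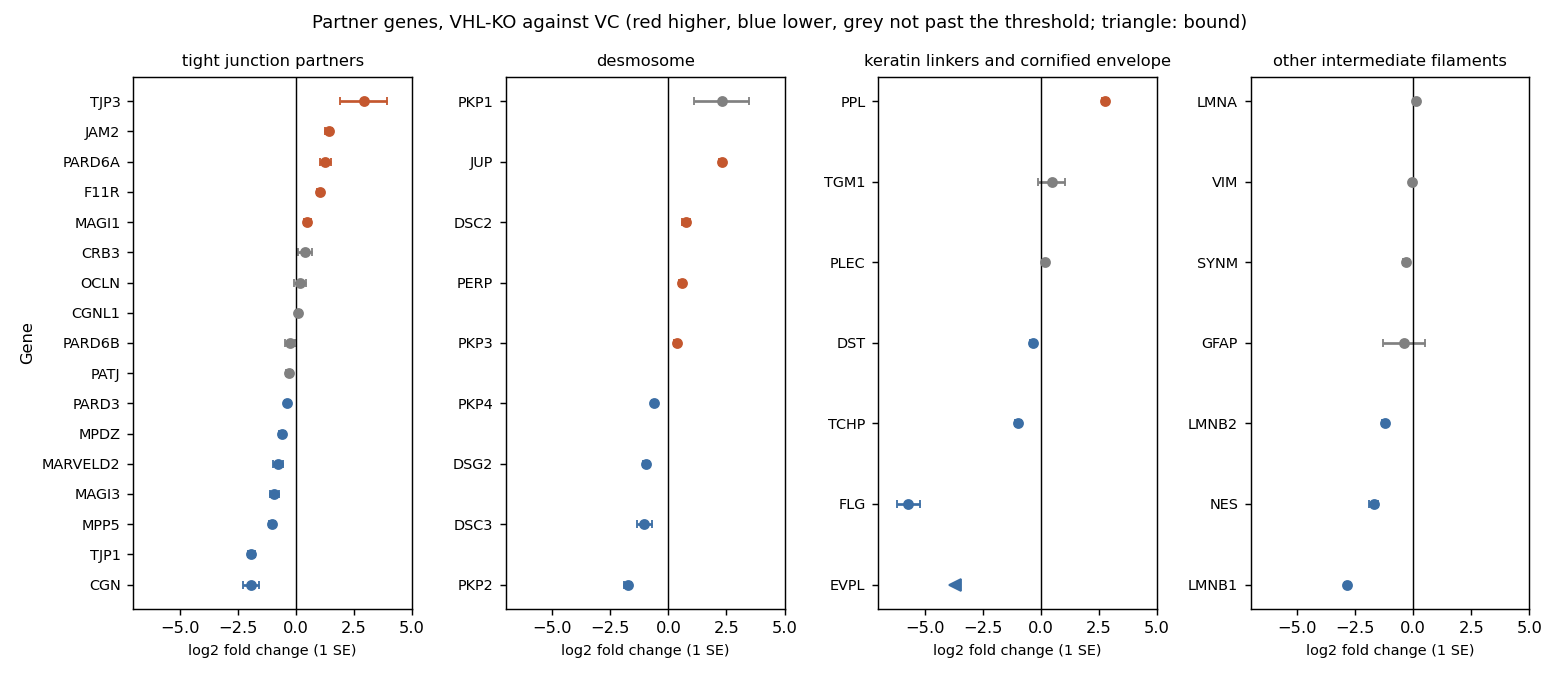
Log2 fold changes of VHL-KO against VC with 1 SE for the tested genes of the tight junction, desmosome, linker and intermediate filament lists, coloured by call, with EVPL at its bound. JUP at 2.29 and PPL at 2.78 lie opposite TJP1 at -1.92 and LMNB1 at -2.84.

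Leukocyte and endothelial markers summed to less than 1 CPM in each sample. None of 4 leukocyte markers was tested. They summed to 0.0293, 0.0673 and 0.0790 CPM in VC and 0.112, 0.278 and 0.0938 CPM in VHL-KO replicates 1 to 3. CD68 was highest in the VHL-KO mean (0.0931 CPM) and LYZ in the VC mean (0.0400 CPM), with CD3E at 0. Of 4 endothelial markers PECAM1 alone was tested, and the list summed to 0.234, 0.168 and 0.237 CPM in VC and 0.711, 0.324 and 0.469 CPM in VHL-KO replicates 1 to 3. VWF had 2, 0 and 0 reads in VC and 5, 0 and 1 reads in VHL-KO replicates 1 to 3. KDR had 4, 0 and 9 reads in VC and none in VHL-KO, and CDH5 had 1 read in VC and none in VHL-KO. PECAM1 had 1, 5 and 0 reads in VC and 14, 7 and 9 reads in VHL-KO replicates 1 to 3. It was called higher (log2 fold change 2.73, edgeR adjusted p = 0.0117). PECAM1 passed the filter only through VHL-KO replicate 1, so its call describes a gene selected by the group where it was high. The value was 4.57 without VC replicate 2, which left 1 VC read. It was not called without VC replicate 3 (2.11) and not tested without VHL-KO replicate 1. Of 6 fibroblast markers 2 were tested, COL1A1 (-0.42) and PDGFRB (-1.94), both lower (31.2% of all tested genes were), with summed levels of 43.3, 47.3 and 37.2 CPM in VC and 29.8, 27.2 and 25.5 CPM in VHL-KO replicates 1 to 3. COL3A1 and LUM had no read, and COL1A1 was the most abundant of the list. The part of these markers in the results was not tested. Keratin genes with a letter in their name, KRT6A, KRT6B, KRT6C, KRT33A and KRT33B, had fewer than 10 reads in each sample.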

How the data were processed

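RNA was sequenced from 3 VC and 3 VHL-KO Caki-1 samples, grouped by their labels. The authors trimmed reads with Trim Galore and cutadapt, aligned them with STAR to GRCh38.p13, kept reads with a single mapping location with SAMtools and counted them per gene with HTSeq. The deposited values are raw counts, and strandedness, annotation release and tool versions are not given in the sources used here. Single-location mapping leaves reads of near-identical genes uncounted. Genes that reached 10 reads in some sample, 17401 in all, were tested with the edgeR 4.0.16 quasi-likelihood F test (two-sided, TMM factors, no block) in R 4.3.3, adjusted by Benjamini-Hochberg over all of them, with a threshold of 0.05. Fits were tested on simulated data, and no result of those tests is reported here. Replicate pairs differed by more than counting noise (chi-square per degree of freedom from 6.03 to 31.9), so none was counted as a copy. CPM used TMM-scaled library sizes, and lengths, GC content and positions came from GENCODE 44. Promoters came from RefSeq. Genes were named with values where the mean reached 1 CPM in a group or the call passed. Context lists named their 5 largest called changes at most, and PAX8 (0.52, called higher) is shown besides the 5 of its list. A gene of the tight junction list and a gene of the leukocyte list are not reported here, and the lists' counts, sums and medians leave them out. Members and lists were chosen with earlier results of these data known. Alternatives were RLE and upper quartile factors, library size alone, DESeq2 1.42.0, other count filters, each replicate left out, a replicate block, and GC and length offsets.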

Additional observations from a re-analysis of the deposited data

How the results depend on the processing

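Of the 15 called genes among the keratins, claudins and VHL, 15 kept their call with RLE factors, 13 with DESeq2, 12 with library size alone and 8 with GC and length offsets, and of 6 named genes not called, 0, 0, 3 and 3 were then called. With GC and length offsets, 5 keratins were called higher against 8 in the main test, and 2 lower against 1. There was 1 claudin lower against 2, and the keratin median was 0.32. Over all genes, 10406 of 17355 were then called, 50.3% of them higher. The replicate block with these offsets gave 5 keratins higher, 2 lower, 1 claudin lower and a keratin median of 0.33. It called 10336 of 17355 genes, 49.7% of them higher. CLDN15 changed sign with the offsets (-0.040, and -0.0355 with the replicate block added), as did DST (0.040 and 0.037). Library size alone gave 2 keratins and 4 claudins lower, where 10501 of 17401 genes were called and 35.8% of those calls were higher. With this scaling the claudin median was -0.22, and VHL-KO sums were 1598 for keratins and 354 for claudins. It turned KRT10 (-0.0036) and CLDN1 (-0.11). Upper quartile factors gave a claudin median of 0.088 and turned CLDN23 (0.032). A filter of at least 1 count gave 2 keratins lower, where 10349 of 28574 genes were called, 45.5% of them higher. At least 10 reads in every sample gave 0 keratins and 1 claudin lower, since fewer genes were tested. This filter called 9215 of 13545 genes, 48% of them higher. Without single replicates, keratins lower ran from 1 to 2 and the claudin median from -0.15 to 0.10, and CLDN23 from -0.26 to 0.19, the latter without VHL-KO replicate 2. Whether the replicate numbers pair the samples is not given in the sources used here. Same-numbered samples had correlations of deviations of 0.0627, -0.000449 and 0.0283, and 2 of 3 VC samples correlated best with their own number. With 3 samples per group these values cannot settle whether samples were paired. The replicate block gave 7 keratins higher and 2 lower and 3 claudins higher and 2 lower. It called 10284 of 17401 genes, 47.1% of them higher. The cause of the other shifts was not tested. Genes under 10 reads in all samples were left out of the main test, and only the filter of at least 1 count fitted them.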
